A study of Mus musculus with 14 samples.

Results

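The genes described here are 36 genes of glycolysis and of the cell's response to low oxygen, listed by name. They comprise the alpha subunits of the hypoxia-inducible factor (HIF) and the hydroxylases that mark it for destruction, the transporters and enzymes that take glucose to lactate, and other genes that HIF is known to switch on. Each gene was read from the probeset carrying its symbol, or, where several do, from the one whose mean over the 14 arrays was highest; the choice did not use any difference between groups. Of the 36 genes, 30 could be tested, of 12393 genes with a probeset of their own among 22626 probesets. Gapdh is read only by 3 Affymetrix control probesets, which stay outside the test and are described apart. Bnip3l is read only by probesets that carry several symbols, and Gpi1, Eno1, Pfkfb4 and Ankrd37 are not analysed here. The 30 genes carry 59 probesets, and 17 of them have more than 1.

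RNA came from B16-F10 cells, a melanoma line of the C57BL/6J mouse, grown in RPMI medium with 10% serum, and was hybridised to Affymetrix mouse expression arrays. There were 3 arrays of cells treated for 3 h with Lipofectamine 2000, a cationic liposome reagent, in serum-free Opti-MEM without plasmid DNA and then returned to RPMI with serum for 30 min. There were 3 arrays of cells heat-shocked at 42.5°C for 1 h with a recovery of 30 min at 37°C, 3 of cells given 40 mM benzyl alcohol, a membrane fluidizer, for 1 h at 37°C, and 5 of untreated control cells. The recovery after benzyl alcohol is 3 h in one description and 30 min in another. All arrays are labelled as biological replicates of this 1 cell line, and the labels do not say whether they came from separate cultures or days. Because the control cells were untreated, the liposomes and the change of medium cannot be told apart in the comparison of Lipofectamine with control.

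HIF is a transcription factor made of an oxygen-regulated alpha subunit and a stable partner. When oxygen is present, prolyl hydroxylases of the Egln family mark the alpha subunit and it is degraded, so that much of its control is on the protein and not on its mRNA. When the alpha subunit persists, it binds the core letters ACGTG or GCGTG in promoters and raises genes for glucose uptake, glycolysis, blood vessel growth and mitochondrial turnover. Melanoma cells, like other tumour cells, often run glycolysis at a high rate even in oxygen.

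The values are log2 signals after robust multiarray analysis (RMA), so that a difference of 1 is a doubling. Signals of different probesets are not compared with each other. Array medians lay between 7.03 and 7.12, and arrays correlated at 0.975 to 0.997. Of 8 melanocyte markers 7 were measured, and their group means lay between 9.51 and 13.2, the lowest being Mitf; the markers of fibroblasts, macrophages and epithelial cells had group means of 3.35 to 8.28. The summed log2 signal of the 6 macrophage markers was 36.7 to 37.3 in heat-shocked cells and 36.8 to 37.8 in benzyl alcohol cells, against 35.3 to 36.4 in control cells, and Cd68 was higher in benzyl alcohol cells by 0.90 (adjusted p = 0.00374). The summed melanocyte signal was 83.4 to 84.1 in Lipofectamine cells and 82.3 to 83.1 in heat-shocked cells, against 84.1 to 87.7 in control cells. Of the 7 melanocyte markers 2 fell with heat shock, Sox10 by 0.98 (adjusted p = 0.0135) and Tyr by 0.39 (adjusted p = 0.0415), and Mitf changed by -1.41 with Lipofectamine and -1.46 with heat shock without passing (adjusted p = 0.0671 and 0.0528). The 3′ minus 5′ signal of the Gapdh control probesets, a measure of RNA integrity, was 0.01 to 0.13 in heat-shocked cells and 0.07 in benzyl alcohol array 3, against -0.14 to -0.03 in control cells. The same measure for actin was 0.39 in heat shock array 1, against 0.06 to 0.15 in control cells, and the part of any of these differences in the results was not tested.

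Few of the 30 genes passed the test in any comparison with control cells. The share was 16.7%, 13.3% and 3.33% with Lipofectamine, heat shock and benzyl alcohol, against 4.88%, 5.96% and 1.39% of all probesets. The genes were chosen with earlier results of these data known, and the difference in shares was not tested. A gene counts as passing, and as having risen or fallen, if limma gave it a p under 0.05 after Benjamini-Hochberg adjustment across the 22626 probesets. With Lipofectamine 2 genes rose (Adm and Hilpda) and 3 fell (Slc2a3, Pfkl and Ndrg1), where 1.78% of all probesets rose and 3.1% fell. With heat shock 2 rose (P4ha1 and P4ha2) and 2 fell (Hk2 and Hilpda), where 1.05% of all probesets rose and 4.91% fell. With benzyl alcohol 0 rose and Hk2 fell, where 0.689% of all probesets rose and 0.698% fell. At an unadjusted p under 0.05 there were 7 of the 30 genes, and 3024 of all 22626 probesets. The median log2 change of the 30 genes was -0.05 with Lipofectamine, 0.02 with heat shock and 0.00 with benzyl alcohol, and that of all probesets was -0.02, 0.03 and 0.02. The change was smaller than 0.5 on the log2 scale, in either direction, for 26, 26 and 29 of the 30 genes. These comparisons share the same 5 control arrays.

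**Figure D1:**
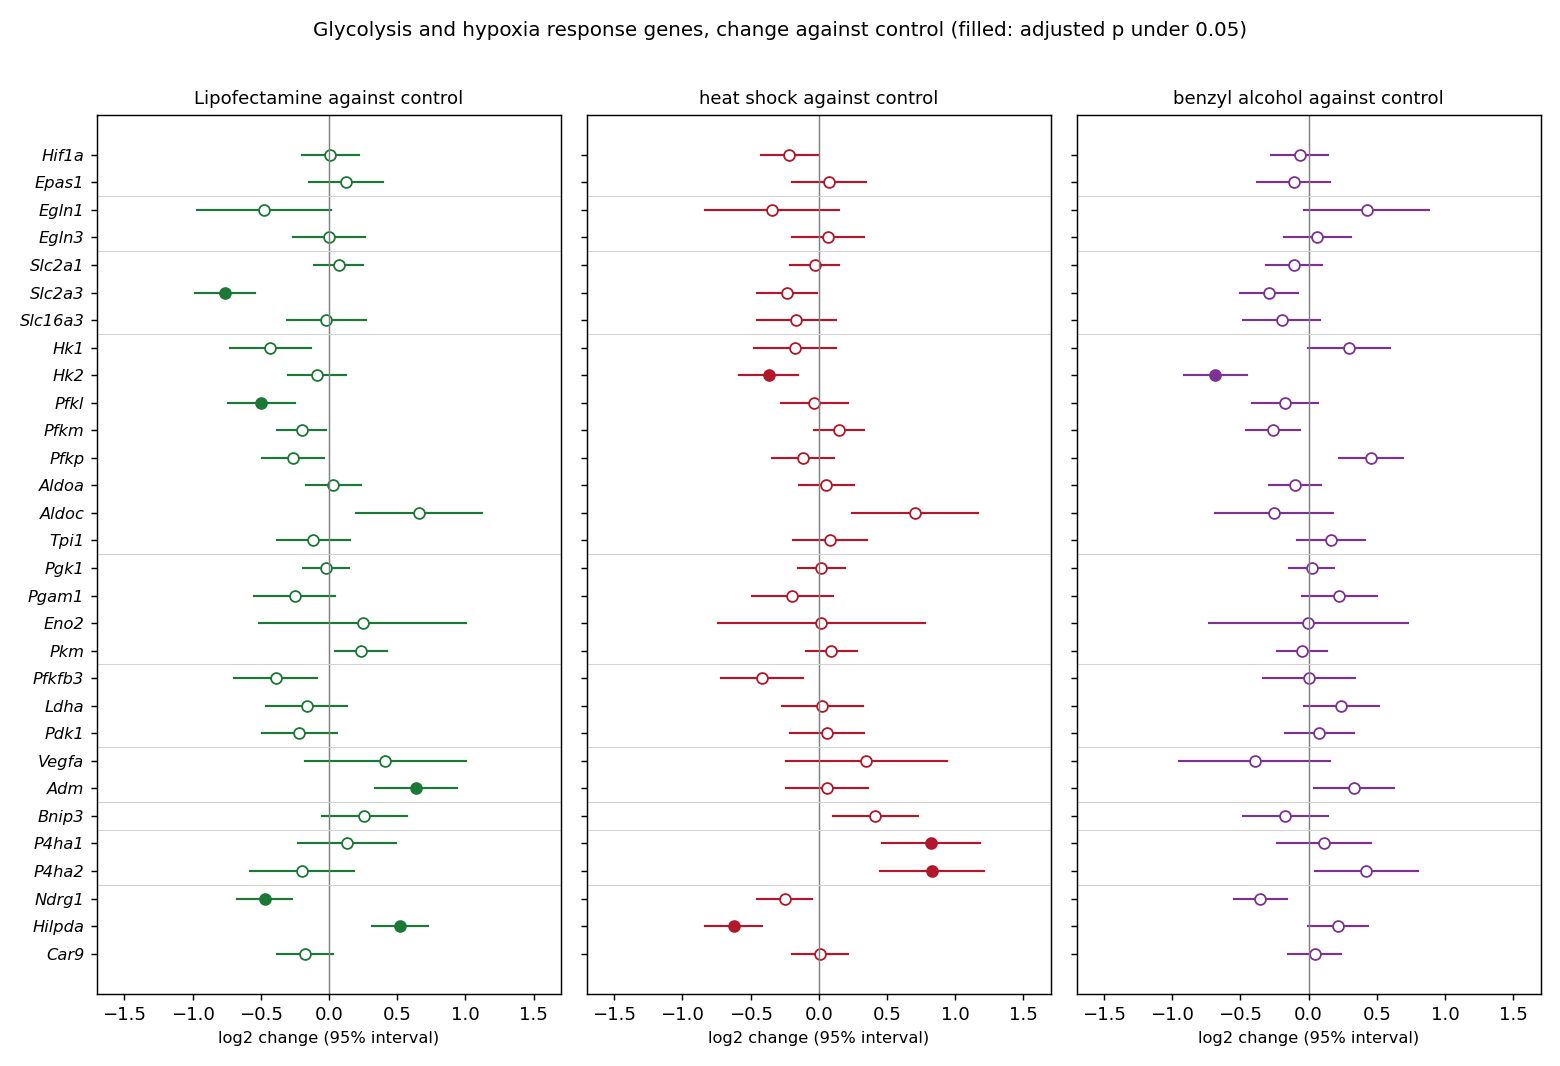
The log2 change (horizontal axis) of each of the 30 genes (rows, in order of their roles, with grey lines between roles) in Lipofectamine, heat-shocked and benzyl alcohol cells against control cells. Points are limma estimates from 3 treated and 5 control arrays, bars are 95% intervals and filled points have an adjusted p under 0.05; 5, 4 and 1 of the 30 points are filled in the 3 panels.

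The alpha subunits did not pass the test at their brightest probesets. Hif1a, the oxygen-regulated subunit present in most cells, read 10.45, 10.44 and 10.23 in Lipofectamine cells, 10.03, 10.31 and 10.10 in heat-shocked cells, 10.45, 10.29 and 10.16 in benzyl alcohol cells and 10.35, 10.44, 10.24, 10.36 and 10.42 in control cells. The groups overlap, and the changes against control were 0.01, -0.22 and -0.06 (SE 0.10 each; adjusted p = 0.982, 0.202 and 0.859). Epas1, the HIF-2 alpha subunit, read 6.30, 6.01 and 6.35 in Lipofectamine cells, 6.14, 6.28 and 6.09 in heat-shocked cells, 5.83, 6.14 and 6.00 in benzyl alcohol cells and 6.15, 6.26, 5.74, 6.25 and 6.11 in control cells. These groups overlap too, with changes of 0.12, 0.07 and -0.11. The Epas1 signal is dim, not far above the lower quartile of all probesets (5.64 to 5.89 over the arrays). A level reading there does not show whether the gene is expressed.

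The 4 Hif1a probesets did not give the same picture. At probeset 1416035_at the signal was 7.37, 7.34 and 7.11 in Lipofectamine cells, against 7.45, 8.13, 7.92, 8.24 and 8.24 in control cells. All Lipofectamine arrays lay below the control range there, a change of -0.72 (SE 0.16, adjusted p = 0.0212), which no longer passed without any 1 of the Lipofectamine arrays or without control array 4 (adjusted p = 0.0521 to 0.103). At probeset 1448183_a_at the signal was 6.14, 6.58 and 6.61 in heat-shocked cells, against 7.97, 7.72, 6.86, 7.73 and 8.21 in control cells. All heat shock arrays lay below the control range, a change of -1.26 (SE 0.23, adjusted p = 0.00941), and without heat shock array 1 it was -1.11 (adjusted p = 0.0581). Neither change passed at the other 3 Hif1a probesets, where the changes with Lipofectamine were 0.01, 0.10 and -0.11 and those with heat shock -0.22, -0.26 and 0.13. Which part of the transcript each probeset reads was not looked up here.

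**Figure D2:**
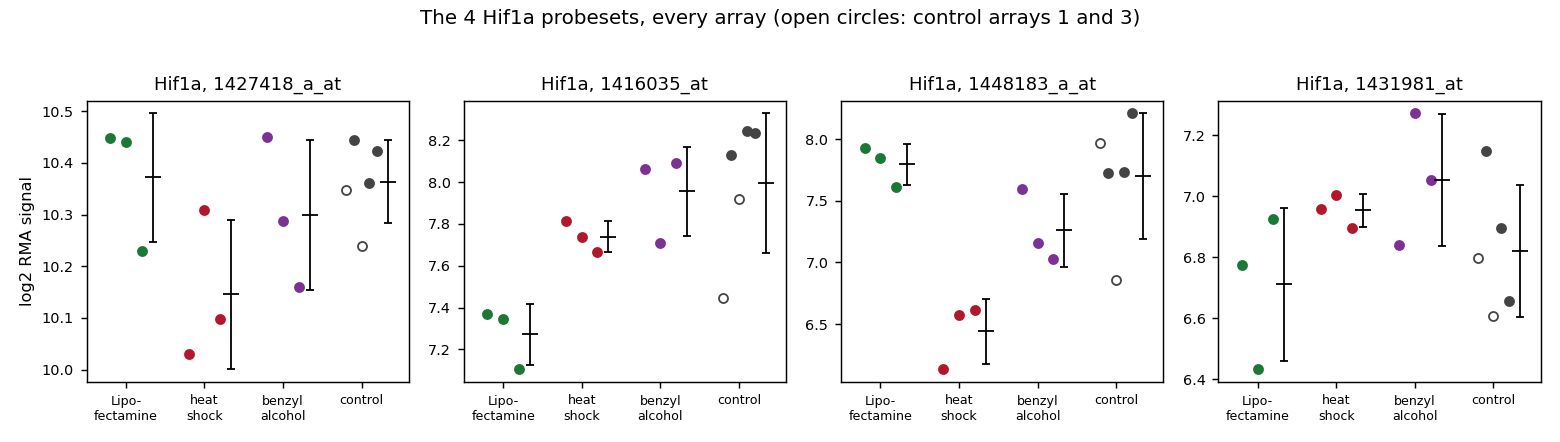
The log2 RMA signal (vertical axis, a scale of its own in each panel) of the 4 Hif1a probesets in every array; open circles are control arrays 1 and 3, and the dash and bar beside each group are its mean and SD. The Lipofectamine arrays lie lowest at 1416035_at (7.11 to 7.37) and the heat shock arrays lowest at 1448183_a_at (6.14 to 6.61), while the groups overlap at the brightest probeset.

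Egln1, the main oxygen-sensing HIF hydroxylase and itself a HIF target, stood out by its spread in the control arrays. It read 8.31, 8.32 and 8.36 in Lipofectamine cells, 8.45, 8.54 and 8.40 in heat-shocked cells and 9.16, 9.17 and 9.37 in benzyl alcohol cells, against 8.11, 9.20, 8.34, 9.27 and 9.11 in control cells. The Lipofectamine and heat shock arrays lay with control arrays 1 and 3, and the benzyl alcohol arrays with the other three, and no change against control passed (-0.48, -0.34 and 0.43; adjusted p = 0.285, 0.387 and 0.423). Egln3, the hydroxylase most strongly raised in hypoxia, lay between 5.50 and 5.97 in all arrays, with changes of at most 0.07. That is near the lower quartile of all probesets (5.64 to 5.89 over the arrays), so the level signal does not show whether Egln3 is expressed.

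Among the transporters Slc2a3 (GLUT3), a high-affinity glucose transporter, fell with Lipofectamine. It read 8.38, 8.44 and 8.26 in Lipofectamine cells, against 9.33, 9.04, 9.25, 8.96 and 9.02 in control cells. The groups do not overlap, and the change of -0.76 (SE 0.10, 95% interval -0.98 to -0.54, adjusted p = 0.00158), a 1.69-fold lower signal, passed under every alternative tried, between -0.93 and -0.40, the smallest with the mean of the gene's probesets. A lower signal in such bulk samples cannot tell fewer expressing cells from less RNA per cell. Another Slc2a3 probeset, 1455898_x_at, fell by 0.62 (adjusted p = 0.0136), though without Lipofectamine array 1 or 3 it did not pass (adjusted p = 0.0641 and 0.066), and the dim probesets 1421924_at and 1427770_a_at changed by -0.18 and -0.05 without passing. Heat-shocked and benzyl alcohol cells read 8.89, 8.92 and 8.85 and 8.92, 8.85 and 8.72, below every control array in both, but their changes of -0.23 and -0.29 did not pass (adjusted p = 0.196 and 0.189). Slc2a1 (GLUT1), the basal glucose transporter and a classic HIF target, was nearly level: 8.50, 8.59 and 8.33 in Lipofectamine cells, 8.41, 8.38 and 8.33 in heat-shocked cells, 8.40, 8.44 and 8.05 in benzyl alcohol cells and 8.41, 8.42, 8.41, 8.39 and 8.39 in control cells. Its changes of 0.07, -0.03 and -0.11 lay within intervals of -0.32 to 0.25. Slc16a3, which exports lactate, changed by -0.02, -0.16 and -0.20, and none passed.

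Of the 8 enzymes of upper glycolysis tested, Pfkl fell with Lipofectamine and Hk2 with heat shock and with benzyl alcohol. Hk2, the inducible hexokinase that traps glucose in the cell, read 9.73, 9.94 and 9.55 in Lipofectamine cells, 9.48, 9.43 and 9.47 in heat-shocked cells and 9.32, 8.91 and 9.20 in benzyl alcohol cells, against 9.70, 9.89, 9.80, 9.94 and 9.80 in control cells. Every heat shock and benzyl alcohol array lay below the control range, and the Lipofectamine arrays overlapped it. The change was -0.68 with benzyl alcohol (SE 0.11, 95% interval -0.91 to -0.45, adjusted p = 0.00444), which passed under every alternative tried. It was -0.37 with heat shock (SE 0.10, adjusted p = 0.0462), which did not pass without any 1 heat shock array, control array 2, 4 or 5 or Lipofectamine array 1 (adjusted p = 0.075 to 0.18), and -0.09 with Lipofectamine (adjusted p = 0.746).

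Pfkl, the liver form of phosphofructokinase, which commits sugar to glycolysis, read 10.05, 10.23 and 9.78 in Lipofectamine cells, against 10.36, 10.62, 10.46, 10.64 and 10.49 in control cells. The groups do not overlap, and the change was -0.50 (SE 0.11, adjusted p = 0.0262). It did not pass without Lipofectamine array 1 or 3 or control array 2 or 4 (adjusted p = 0.056 to 0.116), and another Pfkl probeset changed by -0.14 (adjusted p = 0.639). The other isozymes, Pfkm of muscle and Pfkp of platelets, changed by -0.20 and -0.27 with Lipofectamine without passing. Pfkp read 9.13, 8.85 and 8.75 in benzyl alcohol cells, against 8.25, 8.40, 8.51, 8.66 and 8.43 in control cells. These groups do not overlap, but the change of 0.46 missed the threshold (adjusted p = 0.056). Another Pfkp probeset, 1430634_a_at, had means of 8.10 in benzyl alcohol cells and 8.11 in control cells. It fell by 0.54 with heat shock (adjusted p = 0.0389), where the brightest changed by -0.12. Without any 1 heat shock array, control array 2, 4 or 5 or Lipofectamine array 1, the call at 1430634_a_at was lost (adjusted p = 0.0548 to 0.147).

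Hk1, the housekeeping hexokinase, was read by probesets that differed in the same way as those of Hif1a. Its brightest probeset changed by -0.43, -0.18 and 0.30 in Lipofectamine, heat-shocked and benzyl alcohol cells against control, and none passed (adjusted p = 0.0971, 0.466 and 0.387). At 1420901_a_at the signal was 7.29, 7.26 and 7.33 in heat-shocked cells, against 8.12, 8.21, 7.92, 8.36 and 8.71 in control cells, all heat shock arrays below the control range. That change of -0.97 (SE 0.16, adjusted p = 0.00456) passed under every alternative tried that keeps single probesets. The means at 1420901_a_at were 7.85 in Lipofectamine and 7.70 in benzyl alcohol cells, against 8.27 in control cells, without passing. With benzyl alcohol the direction there was thus opposite to that at the brightest Hk1 probeset. Aldoa, the aldolase of most tissues, and Tpi1, triosephosphate isomerase, changed by -0.11 to 0.16. Aldoc, an aldolase also raised by HIF, was higher by 0.66 with Lipofectamine and 0.70 with heat shock, without passing (adjusted p = 0.0976 and 0.0693), and its control arrays were split, as were those of several other genes.

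In lower glycolysis 0 of 4 tested enzymes passed against control. An unadjusted p under 0.05 was found for 1 (Pkm with Lipofectamine), and for 4248 of all 22626 probesets with Lipofectamine. Pgk1, phosphoglycerate kinase, which makes the first ATP of the pathway, read 12.84, 12.82 and 12.83 in Lipofectamine cells, 12.93, 12.89 and 12.80 in heat-shocked cells, 12.92, 12.91 and 12.80 in benzyl alcohol cells and 12.80, 12.93, 12.82, 12.89 and 12.81 in control cells. All groups overlap, with changes of -0.02, 0.02 and 0.02 and intervals that stay within -0.19 to 0.19. Gapdh, glyceraldehyde-3-phosphate dehydrogenase, read 13.70, 13.67 and 13.74 at its middle control probeset in Lipofectamine cells, 13.59, 13.63 and 13.64 in heat-shocked cells, 13.62, 13.57 and 13.55 in benzyl alcohol cells and 13.72, 13.63, 13.55, 13.66 and 13.58 in control cells. When the 3 Gapdh probesets were added to the fit, an alternative chosen after the data had been seen, their changes against control ran between -0.16 and 0.08, and the lowest adjusted p was 0.235. Pkm, pyruvate kinase, read 12.60, 12.67 and 12.46 in Lipofectamine cells, above the control range of 12.27 to 12.44, but the change of 0.23 did not pass (adjusted p = 0.154). Pgam1 and Eno2 changed by -0.25 and 0.25 with Lipofectamine, -0.19 and 0.02 with heat shock and 0.22 and 0.00 with benzyl alcohol.

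The 3 tested enzymes that steer flux toward lactate did not pass either. Pfkfb3 makes fructose-2,6-bisphosphate, the activator of phosphofructokinase, and read 6.25, 6.44 and 5.90 in Lipofectamine cells, 6.19, 6.31 and 6.02 in heat-shocked cells and 6.93, 6.26 and 6.58 in benzyl alcohol cells, against 6.77, 6.46, 6.85, 6.41 and 6.45 in control cells. The heat shock arrays lay below the control range and 2 of the 3 Lipofectamine arrays did, with changes of -0.42 and -0.39 (adjusted p = 0.0985 and 0.141). Ldha, lactate dehydrogenase A, read 12.46, 12.45 and 12.40 in Lipofectamine cells, 12.65, 12.66 and 12.58 in heat-shocked cells, 12.77, 12.92 and 12.83 in benzyl alcohol cells and 12.38, 12.89, 12.22, 12.78 and 12.74 in control cells. The control arrays spanned a wider range than the treated arrays together, and the changes of -0.16, 0.03 and 0.24 did not pass. Pdk1, the kinase that shuts pyruvate out of the mitochondrion, changed by -0.22, 0.06 and 0.08.

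Of the secreted signals Adm rose with Lipofectamine. Adm, which encodes adrenomedullin, a vasodilator peptide, read 6.32, 6.88 and 6.14 in Lipofectamine cells, against 5.70, 5.79, 5.97, 5.80 and 5.78 in control cells. The probeset is dim: its control mean of 5.81 lay near the lower quartile of all probesets, 5.71 to 5.85 in control arrays. All Lipofectamine arrays lay above the control range of Adm, with array 2 well above the other two, and the change was 0.64 (SE 0.14, adjusted p = 0.0211), a 1.56-fold higher signal. Leaving out Lipofectamine array 2 lowered it to 0.42 (adjusted p = 0.0484), and leaving out array 1 gave 0.70, which missed the threshold (adjusted p = 0.065). In heat-shocked cells Adm read 5.91, 5.77 and 5.93, and in benzyl alcohol cells 6.21, 6.27 and 5.94, with changes of 0.06 and 0.34 that did not pass. Vegfa, the vessel growth factor, read 9.01, 8.77 and 8.67 in Lipofectamine cells, 8.63, 8.73 and 8.91 in heat-shocked cells and 7.86, 7.93 and 8.24 in benzyl alcohol cells, against 9.28, 7.80, 8.88, 7.98 and 8.08 in control cells. The control arrays covered the range of all treated arrays, and the changes of 0.41, 0.35 and -0.39 did not pass (adjusted p = 0.484, 0.461 and 0.58). Bnip3, a receptor that tags mitochondria for removal, read 9.20, 9.41 and 9.10 in Lipofectamine cells, 9.50, 9.35 and 9.33 in heat-shocked cells and 8.92, 8.56 and 8.95 in benzyl alcohol cells, against 8.99, 8.65, 9.43, 8.90 and 8.94 in control cells. Each treated group overlaps the control arrays, while the benzyl alcohol arrays lie below all Lipofectamine and heat shock arrays, and the changes against control were 0.26, 0.41 and -0.17 (adjusted p = 0.385, 0.106 and 0.694).

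P4ha1 and P4ha2, the catalytic subunits of the hydroxylase that stabilises collagen in the endoplasmic reticulum, both rose with heat shock. P4ha1 read 9.47, 9.21 and 9.47 in heat-shocked cells, against 8.93, 8.26, 8.95, 8.34 and 8.32 in control cells. P4ha2 read 8.92, 8.86 and 8.88 in heat-shocked cells, against 8.25, 7.84, 8.63, 7.91 and 7.66 in control cells. In both genes all heat shock arrays lay above the control range, and control arrays 1 and 3 lay above the other three. The changes were 0.82 (SE 0.17, adjusted p = 0.0143) and 0.83 (SE 0.18, adjusted p = 0.0192), each a 1.77-fold higher signal. Against control arrays 1 and 3 alone the changes were 0.45 and 0.44 and did not pass (adjusted p = 0.0748 and 0.0959). P4ha1 also missed the threshold without heat shock array 1 or 3 (adjusted p = 0.0704 and 0.0808) and P4ha2 without any 1 of the 3 (adjusted p = 0.0763 to 0.0874), and another P4ha1 probeset changed by 0.36 without passing (adjusted p = 0.194). In Lipofectamine cells P4ha1 and P4ha2 changed by 0.13 and -0.20, and in benzyl alcohol cells by 0.11 and 0.42, none of which passed.

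Hilpda was the 1 gene of the 30 that passed in opposite directions with Lipofectamine and with heat shock. It encodes a small lipid droplet protein that restrains fat breakdown and is raised by HIF and by fatty acids. It read 8.04, 8.12 and 7.95 in Lipofectamine cells, 6.93, 6.91 and 6.84 in heat-shocked cells and 7.94, 7.55 and 7.71 in benzyl alcohol cells, against 7.49, 7.33, 7.72, 7.54 and 7.50 in control cells. The Lipofectamine arrays lay wholly above and the heat shock arrays wholly below the control arrays, while the benzyl alcohol arrays overlapped them. The change was 0.52 with Lipofectamine (SE 0.10, adjusted p = 0.00951) and -0.62 with heat shock (SE 0.10, adjusted p = 0.00368), a 1.43-fold higher and a 1.54-fold lower signal. The rise with Lipofectamine did not pass without Lipofectamine array 1 (adjusted p = 0.0599) or against control arrays 1 and 3 alone (adjusted p = 0.0605), and the fall with heat shock passed with each array left out. The direct comparison gave Lipofectamine above heat shock by 1.14 (SE 0.11, 95% interval 0.91 to 1.38, adjusted p = 7.05e-05), a 2.21-fold difference. That difference passed under every alternative tried, between 1.10 and 1.19. With benzyl alcohol the change was 0.22 (adjusted p = 0.393).

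Ndrg1, a growth-restraining protein strongly raised in hypoxia, fell with Lipofectamine. It read 8.35, 8.51 and 8.35 in Lipofectamine cells, 8.62, 8.69 and 8.56 in heat-shocked cells and 8.64, 8.41 and 8.51 in benzyl alcohol cells, against 8.73, 8.99, 8.78, 8.97 and 8.90 in control cells. All treated arrays lay below all control arrays, and the changes were -0.47 (SE 0.09, adjusted p = 0.0127), -0.25 and -0.35, those with heat shock and benzyl alcohol not passing (adjusted p = 0.129 and 0.0739). The change with Lipofectamine did not pass without Lipofectamine array 1 or 3 (adjusted p = 0.0873 and 0.0509) or against control arrays 1 and 3 alone (-0.35, adjusted p = 0.123). Over all 5 Ndrg1 probesets the changes were -0.65 to -0.21 with Lipofectamine and -0.66 to -0.22 with heat shock; 3 passed with Lipofectamine and 1, 1423413_at, with heat shock (adjusted p = 0.0206), which was lost without any 1 heat shock array or control array 4 (adjusted p = 0.0528 to 0.118). The other probesets that passed with Lipofectamine, 1450976_at and 1456174_x_at, were also lost without Lipofectamine array 1 or 3, control array 4 or any 1 heat shock array, among others (adjusted p up to 0.162 and 0.181). Car9, the hypoxia-induced carbonic anhydrase, lay between 7.17 and 7.54 in all arrays and did not pass.

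**Figure D3:**
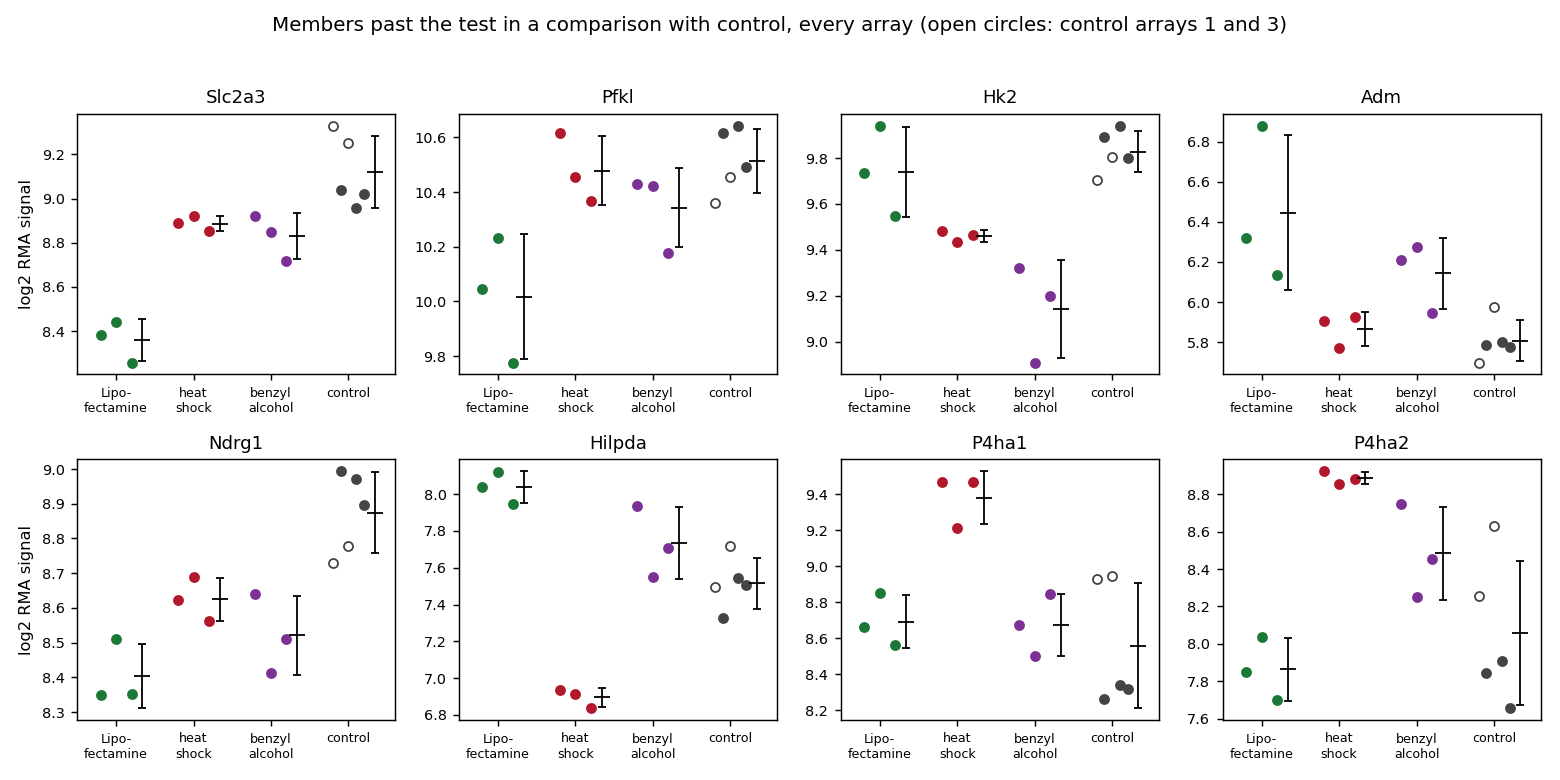
The log2 RMA signal (vertical axis, a scale of its own in each panel) of the 8 genes that passed in a comparison with control, in every array; open circles are control arrays 1 and 3, and the dash and bar beside each group are its mean and SD. Hilpda lies at 7.95 to 8.12 in Lipofectamine arrays and 6.84 to 6.93 in heat shock arrays around a control range of 7.33 to 7.72, Slc2a3 lies lowest in Lipofectamine arrays, Hk2 in benzyl alcohol arrays, and P4ha1 and P4ha2 highest in heat shock arrays.

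The promoters of the 3 genes with the largest changes among those that passed with heat shock are shown because they hold the core letters that HIF binds, whichever way the gene moved. They are the plus strand of the mouse assembly GRCm38.p6 from RefSeq, from 250 bases before to 50 bases after an annotated start, and 1 of the 2 windows of Hilpda is shown. Capitals mark ACGTG and GCGTG on either strand, read as CACGT and CACGC on the other, and TTCNNGAA, a pair of the inverted units bound by heat shock factor.
Hilpda promoter, chr6:29272376-29272675, plus strand: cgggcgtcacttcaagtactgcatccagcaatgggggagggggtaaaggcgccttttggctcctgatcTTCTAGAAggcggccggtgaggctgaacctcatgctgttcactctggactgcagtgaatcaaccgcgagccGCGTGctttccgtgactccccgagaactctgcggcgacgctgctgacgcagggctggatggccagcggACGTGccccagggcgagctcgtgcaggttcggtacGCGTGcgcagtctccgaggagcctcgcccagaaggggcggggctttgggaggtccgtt
P4ha1 promoter, chr10:59323046-59323345, plus strand: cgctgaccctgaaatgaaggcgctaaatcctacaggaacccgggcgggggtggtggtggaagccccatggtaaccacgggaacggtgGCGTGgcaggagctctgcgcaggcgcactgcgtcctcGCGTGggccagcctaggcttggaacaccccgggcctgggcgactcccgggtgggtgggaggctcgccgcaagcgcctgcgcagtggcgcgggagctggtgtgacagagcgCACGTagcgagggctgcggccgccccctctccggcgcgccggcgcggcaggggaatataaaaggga
P4ha2 promoter, chr11:54100674-54100973, plus strand: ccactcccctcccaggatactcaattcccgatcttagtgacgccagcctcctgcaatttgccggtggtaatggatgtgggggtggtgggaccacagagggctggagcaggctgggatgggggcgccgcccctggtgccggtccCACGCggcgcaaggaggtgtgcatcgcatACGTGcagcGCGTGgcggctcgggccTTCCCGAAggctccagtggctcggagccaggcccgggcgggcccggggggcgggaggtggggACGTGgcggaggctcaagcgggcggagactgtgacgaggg

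Hilpda, which fell with heat shock, holds 3 HIF cores and 1 TTCNNGAA in this window. P4ha1 and P4ha2, which rose, hold 3 and 4 HIF cores, and 0 and 1 TTCNNGAA. Of the 30 genes tested 27 have a promoter window in the RefSeq table, and 25 of these hold at least 1 HIF core on either strand in some window. By window the core was in 32 of 40 (80%), against 43.8% of all 32851 mouse promoter windows of 300 bases; ACGTG was in 60% against 19.6% and GCGTG in 52.5% against 32.4%. Many of these genes were listed because HIF is known to raise them, so the share is no independent result. The heat shock pairs were in 15% of the genes' windows for TTCNNGAA and 2.5% for GAANNTTC, against 8.52% and 7.86% of all windows. A match is a run of letters and not a measured binding site.

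Set directly against heat-shocked cells, Lipofectamine cells were higher in 2 of the 30 genes (Adm and Hilpda) and lower in 4 (Slc2a3, Pfkm, P4ha1 and P4ha2), where 4.42% of all probesets were higher and 1.3% lower. P4ha2 differed by -1.02 (SE 0.20, adjusted p = 0.00949), with 7.85, 8.04 and 7.70 in Lipofectamine cells against 8.92, 8.86 and 8.88 in heat-shocked cells, and P4ha1 by -0.69 (adjusted p = 0.047). Another P4ha1 probeset differed by 0.06 (adjusted p = 0.883), and with the mean of both the P4ha1 difference was -0.32 and did not pass (adjusted p = 0.255). Slc2a3 differed by -0.53 (adjusted p = 0.0166), and with the mean of its 4 probesets by -0.20 without passing (adjusted p = 0.302). Adm was higher by 0.58 (adjusted p = 0.0468), and by 0.36 without Lipofectamine array 2 (adjusted p = 0.123). Pfkm, with 8.89, 8.90 and 8.79 in Lipofectamine cells against 9.33, 9.15 and 9.15 in heat-shocked cells, differed by -0.35 (adjusted p = 0.0449). The calls of P4ha2 and Hilpda held with each array left out. Those of Pfkm and Adm were lost with 9 and 8 of the 11 arrays left out in turn, that of P4ha1 with 7 and that of Slc2a3 with 4 (each heat shock array and Lipofectamine array 1). The Hif1a probeset 1448183_a_at was higher in Lipofectamine cells by 1.35 (adjusted p = 0.00913), and this was lost without heat shock array 1 or Lipofectamine array 1.

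Benzyl alcohol cells differed from heat-shocked cells in 6 of the 30 genes, of which 2 were higher (Pfkp and Hilpda) and 4 lower (Pfkm, Aldoc, Bnip3 and P4ha1), where 5.44% of all probesets were higher and 1.78% lower. Hilpda was higher by 0.84 (SE 0.12, adjusted p = 0.00117), with 7.94, 7.55 and 7.71 in benzyl alcohol cells against 6.93, 6.91 and 6.84 in heat-shocked cells, and this held under every alternative tried. Aldoc, with 6.88, 6.94 and 7.19 in benzyl alcohol cells against 8.02, 7.98 and 7.88 in heat-shocked cells, differed by -0.96 (adjusted p = 0.0227). P4ha1 differed by -0.71 (adjusted p = 0.0317; with the mean of its probesets -0.45, adjusted p = 0.0721), Bnip3 by -0.59 (adjusted p = 0.0432) and Pfkm by -0.41 (adjusted p = 0.0324), and Pfkp was higher by 0.58 (adjusted p = 0.0161). Apart from Hilpda each of these calls was lost without any 1 of the heat shock arrays and without benzyl alcohol array 1, with adjusted p up to 0.147.

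Between benzyl alcohol and Lipofectamine cells 5 genes were higher in benzyl alcohol cells (Egln1, Slc2a3, Hk1, Pfkp and Pgam1) and 2 lower (Hk2 and Aldoc), where 6.71% of all probesets were higher and 5.22% lower. Egln1, Hk1, Pgam1, Aldoc and Slc2a3 also differed among untreated cells. Control arrays 1 and 3 minus control arrays 2, 4 and 5 gave -0.97, -0.44, -0.49, 0.81 and 0.29. The part of this in the differences between treatments was not tested. Pfkp, with 9.13, 8.85 and 8.75 in benzyl alcohol cells against 8.12, 8.37 and 8.07 in Lipofectamine cells, was higher by 0.72 (SE 0.12, adjusted p = 0.0025). Hk2 differed by -0.60 (SE 0.12, adjusted p = 0.00601), and both calls held under every alternative tried. At Pfkp probeset 1430634_a_at, however, the means were 8.10 in benzyl alcohol and 7.96 in Lipofectamine cells, a difference that did not pass. Hk1, with 9.95, 9.51 and 9.77 in benzyl alcohol cells against 9.11, 9.06 and 8.88 in Lipofectamine cells, was higher by 0.72 (adjusted p = 0.00862). Hk1 probeset 1420901_a_at differed by -0.15 there (adjusted p = 0.739), and with the mean of both probesets the difference was 0.29 and did not pass (adjusted p = 0.276). Egln1 was higher by 0.90 (adjusted p = 0.0237), Pgam1 by 0.48 (adjusted p = 0.0429) and Slc2a3 by 0.47 (adjusted p = 0.0131; with the mean of its probesets 0.13, adjusted p = 0.484), and Aldoc differed by -0.92 (adjusted p = 0.0169). Without benzyl alcohol array 1 the calls of Egln1, Slc2a3, Pgam1 and Aldoc were lost, and without Lipofectamine array 1 those of Egln1, Pgam1 and Aldoc; Egln1 was also lost without Lipofectamine array 2 or 3 or benzyl alcohol array 3, and Pgam1 without any 1 of the 9 treated arrays.

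The 5 control arrays did not agree on these genes, although the labels describe them alike. Control arrays 1 and 3 lay wholly above control arrays 2, 4 and 5 for 9 of the 30 genes and wholly below for 9, where 17.7% of all probesets lay above and 21% below. Eno2, the neuronal enolase and a HIF target, read 7.75 and 7.54 in control arrays 1 and 3, against 6.21, 5.98 and 6.19 in control arrays 2, 4 and 5, a difference of 1.52. Vegfa was higher in control arrays 1 and 3 by 1.13, Aldoc by 0.81, P4ha2 by 0.64, P4ha1 by 0.63, Bnip3 by 0.38, Pfkfb3 by 0.37, Slc2a3 by 0.29 and Pkm by 0.15. Egln1 was lower there, with a difference of -0.97, and the other differences of this kind were -0.51 for Ldha, -0.49 for Pgam1, -0.47 for Slc16a3, -0.44 for Hk1, -0.39 for Tpi1, -0.20 for Ndrg1, -0.18 for Pfkl and -0.12 for Hif1a. Hk2, Adm and Hilpda, in contrast, did not part the control arrays in this way. A difference of at least 1 on the log2 scale was found in 2 of the 30 genes (6.67%), against 1.94% of all probesets; these sets of arrays were formed from measured values, so no test of their difference is given.

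The direction against control depended on the control arrays used for several genes, among them Eno2, Vegfa and, with Lipofectamine and heat shock, Egln1. P4ha1 was another, with means of 8.69 in Lipofectamine and 8.67 in benzyl alcohol cells. Control arrays 1 and 3 had a P4ha1 mean of 8.94, and control arrays 2, 4 and 5 one of 8.31. Further cases were P4ha2 with Lipofectamine, Hk1 and Pfkl with heat shock, and Aldoc, Pfkfb3 and Pkm with benzyl alcohol. Ldha, Pgam1 and Tpi1 were cases with both Lipofectamine and heat shock. Hif1a was a case with Lipofectamine and benzyl alcohol, and Slc16a3 with every treatment. Genes whose control arrays overlap are not listed here. Eno2, with 6.99, 7.07 and 6.89 in Lipofectamine cells, changed by -0.66 against control arrays 1 and 3 and by 0.85 against control arrays 2, 4 and 5. In heat-shocked cells the same values were -0.89 and 0.63, and in benzyl alcohol cells -0.91 and 0.61. Vegfa changed by -0.26 and 0.86 with Lipofectamine, by -0.33 and 0.80 with heat shock and by -1.07 and 0.06 with benzyl alcohol. Egln1 changed by 0.11 and -0.87 with Lipofectamine, by 0.24 and -0.73 with heat shock and by 1.01 and 0.04 with benzyl alcohol. Thus Vegfa and Egln1 in Lipofectamine and heat-shocked cells lay nearer to control arrays 1 and 3, and in benzyl alcohol cells nearer to control arrays 2, 4 and 5. Slc2a3 with Lipofectamine (-0.93 and -0.65), Hilpda with heat shock (-0.71 and -0.56) and Hk2 with benzyl alcohol (-0.61 and -0.73) kept their direction and passed against either set. Against control arrays 1 and 3 alone the calls of Pfkl (-0.39, adjusted p = 0.157) and Adm (0.61, adjusted p = 0.066) with Lipofectamine and of Hk2 with heat shock (-0.29, adjusted p = 0.237) were lost, as were those of Ndrg1 and Hilpda with Lipofectamine and of P4ha1 and P4ha2 with heat shock given above. With these 2 control arrays 4 genes passed with Lipofectamine and 3 with heat shock, of which 1 in each is among the 5 and 4 that passed against all control arrays. The others, all lower, were Eno2, Pfkfb3 and P4ha2 with Lipofectamine and Eno2 and Pfkfb3 with heat shock. Of all 22626 probesets 1045 and 841 passed in this setting.

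**Figure D4:**
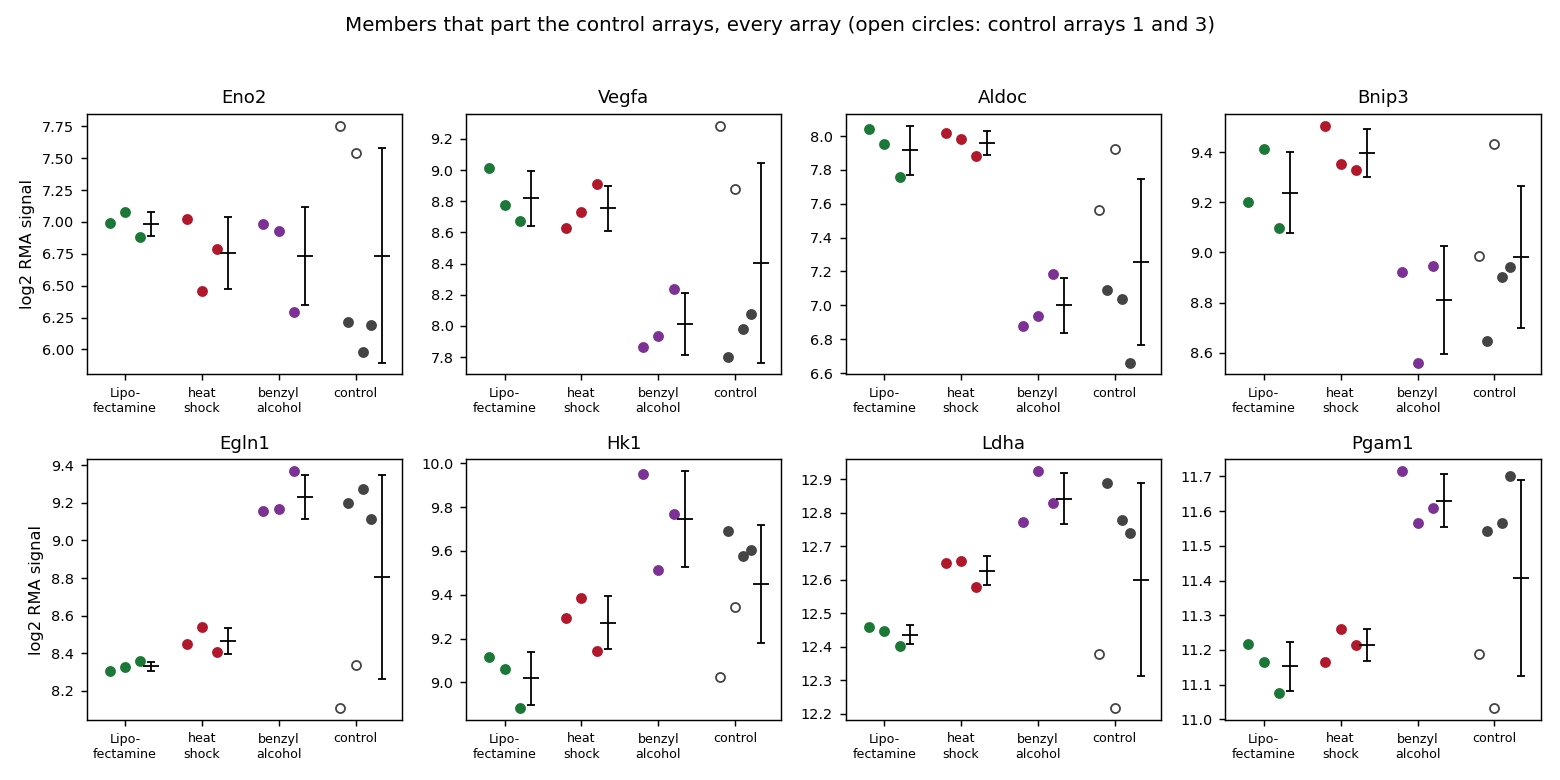
The log2 RMA signal (vertical axis, a scale of its own in each panel) of 8 genes for which control arrays 1 and 3 (open circles) do not overlap control arrays 2, 4 and 5 (filled), in every array; the dash and bar beside each group are its mean and SD. Eno2, Vegfa, Aldoc and Bnip3 are higher and Egln1, Hk1, Ldha and Pgam1 lower in the open circles, with differences of 1.52 in Eno2 and -0.97 in Egln1.

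Other genes of the same pathways, from 5 further lists, also passed in small numbers, where 4.88%, 5.96% and 1.39% of all probesets passed with Lipofectamine, heat shock and benzyl alcohol against control. Of 14 tested regulators of HIF, Cited2, which competes with HIF for the coactivator p300, fell by 1.16 with heat shock (SE 0.18, adjusted p = 0.00406) and changed by 0.11 with Lipofectamine, a direct difference of 1.27 (adjusted p = 0.00387) that passed under every alternative tried. Crebbp, a HIF coactivator, fell by 0.43 with Lipofectamine (adjusted p = 0.0181), and this was lost without Lipofectamine array 1 or 2. Of 16 further glycolytic isozymes and genes of glucose branches, Gbe1, the glycogen branching enzyme, rose by 1.17 with Lipofectamine (SE 0.19, adjusted p = 0.0048) with each array left out, and Bpgm, which makes 2,3-bisphosphoglycerate, fell by 0.41 with heat shock (adjusted p = 0.0394), a call lost with 7 arrays left out in turn. Of 7 genes of the pentose phosphate pathway, which makes NADPH, Taldo1 (transaldolase) rose by 1.00 with Lipofectamine (adjusted p = 0.0203), a call lost without any 1 Lipofectamine array or control array 4. Of 8 genes that control pyruvate dehydrogenase 0 passed against control (at an unadjusted p under 0.05 there were 2 with Lipofectamine, 2 with heat shock and 0 with benzyl alcohol). With benzyl alcohol 0 genes of any of the 5 lists passed against control (at an unadjusted p under 0.05 there were 2, 1, 0 and 5 among the HIF regulators, glycolytic, pentose phosphate and further hypoxia genes). Of all 22626 probesets 4248, 5158 and 3024 had such an unadjusted p with Lipofectamine, heat shock and benzyl alcohol against control.

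Of 36 tested further hypoxia targets, Ccng2, a cyclin that slows the cell cycle, rose by 0.53 with Lipofectamine (adjusted p = 0.0472) and Insig2, which restrains sterol synthesis, fell by 0.59 (adjusted p = 0.0296). Met, the receptor of hepatocyte growth factor, fell by 1.69 with heat shock (SE 0.38, adjusted p = 0.0243). Ccng2 and Insig2 were lost without Lipofectamine array 1 or 3 or control array 4, among others, and Met without any 1 heat shock array or control array 4 (adjusted p = 0.0594 to 0.109). Against Lipofectamine cells, benzyl alcohol cells were also lower in list genes. Gbe1 differed by -1.55 (adjusted p = 0.00149), Taldo1 by -1.43 (adjusted p = 0.00163), Pgd, 6-phosphogluconate dehydrogenase, by -1.41 (adjusted p = 0.0133) and Pdk3, a pyruvate dehydrogenase kinase, by -0.60 (adjusted p = 0.00399). Bhlhe40, a transcriptional repressor raised by HIF, was higher in benzyl alcohol cells than in heat-shocked cells by 1.92 (adjusted p = 0.00953) and than in Lipofectamine cells by 1.38 (adjusted p = 0.0249). Pgd was lost without Lipofectamine array 1, and the Bhlhe40 difference from Lipofectamine cells without array 1 or 3 of either group. The differences of Gbe1, Taldo1 and Pdk3 between benzyl alcohol and Lipofectamine cells passed under every alternative tried. In the same comparison Cited2 differed by -0.66, Ldhb by 0.39, Bhlhe41 by -0.51 and Tgfb3 by 0.50. Benzyl alcohol cells differed from heat-shocked cells by -0.47 in Os9, 0.57 in Bpgm, -0.45 in Pdk3, -0.91 in Taldo1, 1.55 in Met and 0.34 in Tgfb3, and Lipofectamine cells from heat-shocked cells by 0.47 in Egln2 and 0.89 in Gbe1. These passed, but apart from Bhlhe41 and Tgfb3 between benzyl alcohol and Lipofectamine cells each was lost without at least 1 array. Among the cell type markers Mitf was higher in benzyl alcohol cells by 1.72 than in Lipofectamine cells and by 1.76 than in heat-shocked cells (adjusted p = 0.0212 and 0.0313), and Cd68 by 0.71 and 0.79 (adjusted p = 0.00866 and 0.0106); their part in the other differences was not tested. The medians of the 5 lists lay between -0.04 and 0.07 with Lipofectamine, -0.12 and 0.03 with heat shock and -0.20 and 0.04 with benzyl alcohol against control.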

How the data were processed

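The authors read the arrays with GCOS 1.2, applied RMA (Bioconductor) and deposited the log2 signals of 22690 probesets on 14 arrays. RMA corrects background, sets all arrays to a common distribution and summarises probes, so shifts shared by most genes are removed. Its version and the arrays processed together are not given in the sources used here, and detection calls and depth do not exist for these values; the number of arrays limits the precision. The 64 Affymetrix control probesets were left out and no filter on signal was used. Of the 22626 probesets tested 20380 carry 1 symbol, 691 several and 1555 none.

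With R 4.3.3 and limma 3.58.1, Lipofectamine, heat shock and control arrays were fitted together (11 arrays; 5.51 prior degrees of freedom) and benzyl alcohol comparisons in a fit of all 14. P-values were adjusted by Benjamini-Hochberg over all probesets, threshold 0.05. The code was tested on simulated data. Values in every array are given for genes that passed against control and for 12 genes fixed by name; from each list up to 3 genes that passed per comparison are named, by smallest p. The members and lists were chosen with earlier results of these data known. Alternatives were other variance models, normalizations, filters, thresholds and control arrays, a mean over probesets, a replicate block and each array left out; the methods' threshold was taken as a p under 0.001 in the F-test and the pairwise test. Columns of other samples used: 0. Promoter windows come from RefSeq, GRCm38.p6.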

Additional observations from a re-analysis of the deposited data

Results flagged for a closer look

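Epas1 read 5.74 in control array 3, while the other 4 control arrays lay between 6.11 and 6.26. Pdk1 read 7.92 in control array 1, while the other 4 lay between 8.35 and 8.44. In both, the gap between the lowest array and the nearest of the others was divided by the range of the control arrays. These ratios, 0.715 for Epas1 and 0.823 for Pdk1, exceeded Dixon's 95% critical value for 5 samples. The control group was looked at in 30 genes, and chance gives such a ratio in about 1 of 20 groups.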

How the results depend on the processing

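Of the 29 results of single genes among the 30 that passed in the 6 comparisons, 6 passed under every alternative: Slc2a3 with Lipofectamine against control, Hk2 with benzyl alcohol against control and against Lipofectamine, Pfkp with benzyl alcohol against Lipofectamine, and Hilpda against heat shock with Lipofectamine and with benzyl alcohol. The other 23 fell short under at least 1 alternative, 20 of them with some array left out, and 0 turned sign. The number of arrays limits the precision. The numbers of genes that passed (5 with Lipofectamine, 4 with heat shock and 1 with benzyl alcohol against control; 6 between Lipofectamine and heat shock, 6 between benzyl alcohol and heat shock, 7 between benzyl alcohol and Lipofectamine) changed most in the following cases. With each array left out they ran over 1 to 8, 1 to 6, 1 to 2, 2 to 7, 1 to 9 and 3 to 10, in that order of comparisons. Over all 22626 probesets 255 to 2262 then passed with Lipofectamine and 259 to 2658 with heat shock against control. In the main fits 5.72%, 7.22% and 11.9% of all probesets passed in the comparisons between treatments, in the same order. For these, totals over all probesets under the alternatives are not given here. Their counts under the alternatives are therefore not read as a result about the 30 genes. With array weights, whose estimate stopped before its tolerance was reached, the numbers of genes that passed were 18, 10, 2, 16, 13 and 22. Of all 22626 probesets 8304, 5889 and 953 then passed with Lipofectamine, heat shock and benzyl alcohol against control, where 1104, 1349 and 314 passed without weights. With control arrays 2, 4 and 5 only they were 14 with Lipofectamine, 13 with heat shock, 3 with benzyl alcohol, 11 between benzyl alcohol and heat shock and 12 between benzyl alcohol and Lipofectamine. Of all 22626 probesets 4248, 4930 and 686 then passed with Lipofectamine, heat shock and benzyl alcohol against control, where 1104, 1349 and 314 passed with all control arrays. With control arrays 1 and 3 only they were 11 with benzyl alcohol, 10 between benzyl alcohol and heat shock and 11 between benzyl alcohol and Lipofectamine. Of all 22626 probesets 2826 then passed with benzyl alcohol against control. The unmoderated test gave 3 with Lipofectamine, 1 with heat shock and 3 in each treatment's comparison with heat shock. At the threshold of the methods there were 3 with Lipofectamine, 2 with benzyl alcohol and 3 in each comparison between treatments. At a change of at least 1.5-fold there were 2 with Lipofectamine and 3 between Lipofectamine and heat shock. Fits of the 2 groups compared gave 3 with Lipofectamine and 10 between benzyl alcohol and heat shock. Over all probesets the unmoderated test gave 357 with Lipofectamine and 326 with heat shock. At the threshold of the methods 513 probesets passed with Lipofectamine and 283 with benzyl alcohol. With Lipofectamine 592 probesets passed at 1.5-fold and 456 in the fit of 2 groups. Equal array medians and the mean of a gene's probesets each gave 3 between Lipofectamine and heat shock. The mean also gave 7 with heat shock, where 709 of 12393 genes passed. Renewed quantile normalization and the brighter part of the probesets each gave 2 with benzyl alcohol, where 402 of 22626 and 289 of 11313 probesets passed. The cause was not tested.

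The replicate numbers gave no clear sign of paired arrays. Deviations from group means correlated at -0.56 to 0.44 for same-numbered arrays and at -0.65 to 0.63 for other arrays, and 1 of 12 arrays correlated best with its own number. Deviations within a small group depend on each other and the ranges overlap, so this check could not decide whether arrays are paired. With the number as a replicate block 1 gene passed with Lipofectamine and 0 with heat shock, and 186 and 192 of all probesets passed against 1104 and 1349 without it. The fit with the 3 Gapdh control probesets changed no count of the 30 genes.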
